A study of Mus musculus with 2 samples.

Results

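A set of 9 genes of type 2 immunity, out of 27998 genes in the count matrices, was followed through mouse ear skin in allergic contact dermatitis (ACD). The genes were taken by name, not by their values: the cytokines Il4, Il5 and Il13, the receptor chains Il4ra and Il13ra1, the alarmins Il33 and Tslp, the IL-33 receptor Il1rl1, and the transcription factor Gata3. Each of the 9 was present in both matrices. Single cells of ear skin from ICR mice, an outbred stock, 7 to 8 weeks of age, were profiled by droplet 3′ RNA sequencing in 1 library labelled healthy control and 1 library labelled DNFB-elicited ACD. DNFB is a hapten, a small reactive chemical that becomes allergenic once it has bound skin protein. For ACD, male mice had been sensitized with 1.0% DNFB on the back and challenged 6 days later with 0.2% DNFB on the ears, which were taken 60 hr after the challenge. The number of mice in each library was not given in the sources used here.

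Type 2 cytokines are secreted by basophils, mast cells, group 2 innate lymphoid cells (ILC2) and helper T cells. IL-4 and IL-13 signal through a receptor that holds the IL-4 receptor alpha chain with either the common gamma chain or the IL-13 receptor alpha 1 chain, and the signal passes through STAT6 to the nucleus. Alarmins are released by stressed or damaged structural cells and act on receptors carried by the same cytokine-producing leukocytes, and GATA3 is the transcription factor of the type 2 programme in lymphocytes.

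The control library held 12895 barcodes and 99037698 unique molecular identifiers (UMIs, counts of captured mRNA molecules), and the ACD library 13163 barcodes and 126566870 UMIs. After the filter of the study's methods (201 to 4999 genes, no more than 25000 UMIs and a mitochondrial share below 8%), 12213 control and 11665 ACD barcodes were kept, with medians of 6850 and 7447 UMIs. The libraries shared 47 of the kept barcodes. Clusters were found without the 9 members and without the pathway genes described below, and were called "X-like" from marker lists that hold none of these genes. The classes used most were basophil-like (9 control and 270 ACD cells), mast cell-like (101 and 155), T/NK/ILC-like (835 and 3356), dermal fibroblast-like (dFB-like, 3499 and 1583), keratinocyte-like (179 and 140) and endothelial-like (134 and 95). Levels are given as UMIs per 1000000 UMIs of the class with an exact Poisson 95% interval, and shares of cells with exact binomial (Clopper-Pearson) intervals where an interval is printed. With 1 library per condition there was no replicate and no test of ACD against control. All intervals cover counting error only, in these 2 libraries. Levels of different genes were not compared with each other.

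Il4, Il13 and Il5 lie together on chromosome 11. In GRCm38, Il4 (ENSMUSG00000000869) spans chr11:53602982-53618669 and Il13 (ENSMUSG00000020383) chr11:53631324-53634702, both on the minus strand, and Il5 (ENSMUSG00000036117) spans chr11:53720794-53725106 on the plus strand. The gap from Il4 to Il13 is 12654 bases and that from Il13 to Il5 is 86091 bases, in a group of 122125 bases. The 250 bases upstream of each start are shown because the 3 cytokine genes are neighbours, of which Il4 and Il13 were found mainly in basophil-like cells in ACD and Il5 was not found there. They were taken from RefSeq (GRCm38.p6, a C57BL/6J reference and not ICR), at chr11:53618666-53618915 for Il4 and chr11:53634703-53634952 for Il13, both minus strand, and chr11:53720544-53720793 for Il5, plus strand. Each is written 5′ to 3′ on the gene's strand. Capitals mark matches, on either strand, to the GATA sites AGATAA or AGATAG or TGATAA or TGATAG, to the core of the NFAT site, GGAAA, and to the palindromic STAT6 site with a spacer of 4 bases:
Il4: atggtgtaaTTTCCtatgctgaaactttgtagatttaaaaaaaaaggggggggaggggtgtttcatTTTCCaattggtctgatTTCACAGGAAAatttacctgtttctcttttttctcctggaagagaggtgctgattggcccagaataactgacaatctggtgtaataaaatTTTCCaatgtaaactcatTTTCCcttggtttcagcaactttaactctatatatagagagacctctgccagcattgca
Il13: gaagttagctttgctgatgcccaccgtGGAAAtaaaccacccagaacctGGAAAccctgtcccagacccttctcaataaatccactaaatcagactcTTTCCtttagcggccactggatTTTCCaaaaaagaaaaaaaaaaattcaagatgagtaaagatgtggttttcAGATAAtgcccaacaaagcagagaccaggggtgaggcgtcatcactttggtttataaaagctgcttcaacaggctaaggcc
Il5: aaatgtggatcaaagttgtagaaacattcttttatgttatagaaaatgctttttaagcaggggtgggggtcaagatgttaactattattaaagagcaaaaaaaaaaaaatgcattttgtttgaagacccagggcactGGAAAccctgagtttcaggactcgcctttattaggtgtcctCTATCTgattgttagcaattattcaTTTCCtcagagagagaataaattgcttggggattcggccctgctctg

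NFAT is the calcium-driven factor of activated lymphocytes and mast cells, and its core occurred 5 times before Il4, 4 times before Il13 and 2 times before Il5. A window with at least as many cores was found for 0.390% of all 32851 RefSeq promoter windows at the count of Il4, for 1.59% at that of Il13 and for 21.4% at that of Il5, and the median window held 1. The Il4 window held a STAT6 match, from 167 to 158 bases before the start, which overlaps 1 of its NFAT cores; 5.85% of all windows held such a match. The GATA sites, found in 26.5% of all windows, occurred once before Il13, from 81 to 76 bases before the start, and once before Il5, from 72 to 67 bases before it. None was found in the Il4 window. These matches describe letters in the reference and not binding.

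By level, Il4, Il13, Il5 and Il1rl1 were highest in few leukocyte classes. Il13ra1, Il33 and Tslp were spread over resident classes, and Il4ra and Gata3 were found in both. The plot gives UMI shares by class for each library, which also follow class size. In control, dFB-like cells held more Il1rl1 UMIs (69) than mast cell-like (41) or Treg-like cells (9). Most control Il5 UMIs lay outside T/NK/ILC-like and basophil-like cells.

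**Figure D1:**
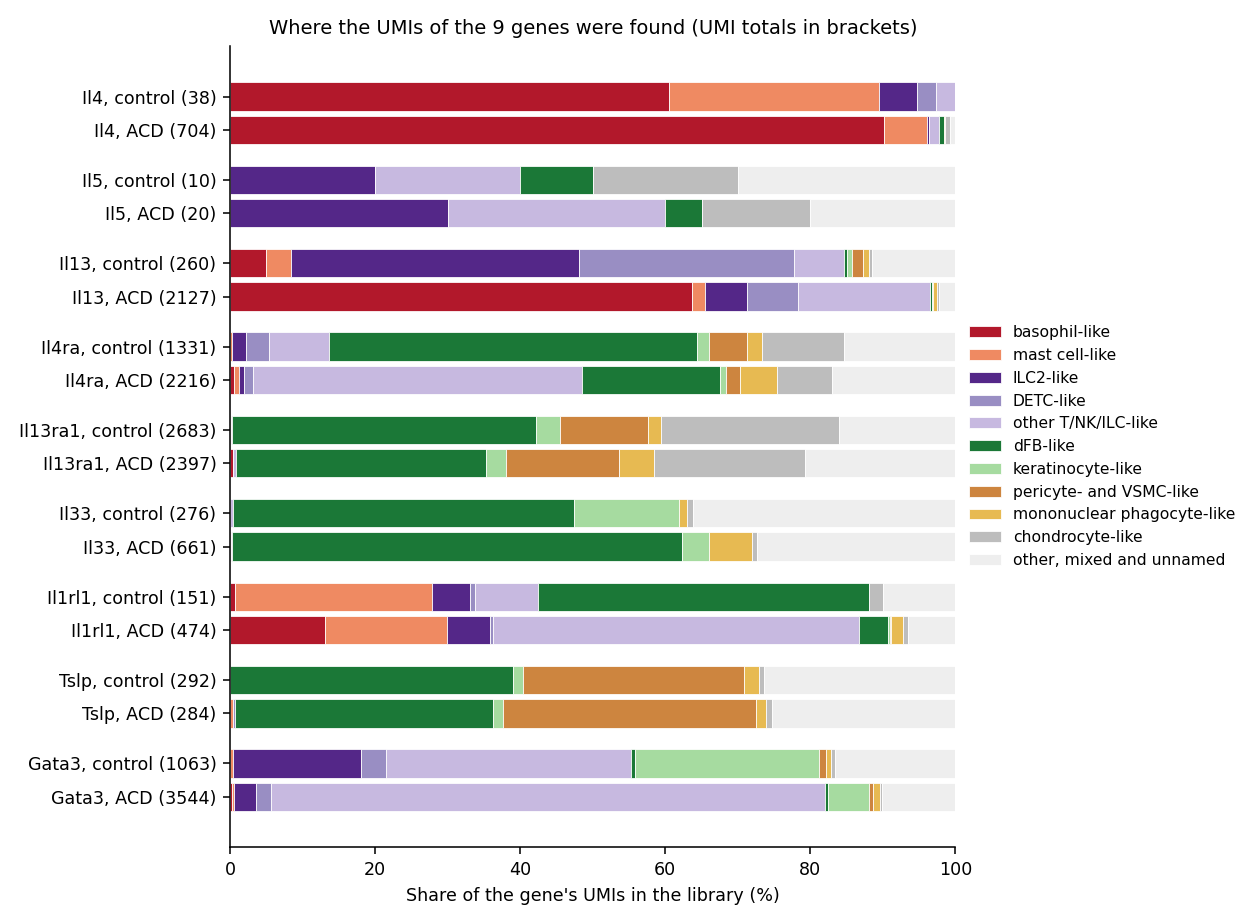
Share of each member's UMIs (percent, horizontal axis) held by each cell class, with 1 bar for the control and 1 for the ACD library. Basophil-like cells held 90.2% of ACD Il4 and 63.7% of ACD Il13 UMIs, T/NK/ILC-like cells 81.5% of ACD Gata3, and dFB-like cells 62.0% of ACD Il33.

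Il4, the cytokine of IgE class switching and of helper T cell commitment, was found in few cells. Over all cells kept there were 38 UMIs in control and 704 in ACD, or 0.412 and 7.06 per 1000000. Basophil-like cells stood at 427 (271 to 641) in control and 488 (451 to 527) in ACD, with a log2 ratio of 0.19 (-0.41 to 0.86), so their own level differed by less than the counting error. The control value rests on 9 cells, and 1 of them held 16 of the 23 UMIs; without the cell with most Il4 in each library the log2 ratio was 1.36. The same 9 cells held chondrocyte markers at a sum of 2691 per 1000000, with 5 of 9 in at least 10% of cells and 4 at 0, against 1077 for their own basophil markers. In ACD basophil-like cells the 2 sums were 1299.7 and 3883, and the part of this in the Il4 and Il13 values was not tested. In ACD, 138 of the 270 basophil-like cells had at least 1 Il4 UMI, and the 27 cells with most Il4 held 71.2% of the class's Il4. At 2000 UMIs per cell, which left out 4 ACD cells, 34.6% of basophil-like ACD cells had an Il4 UMI, against none of 2441 chondrocyte-like ACD cells, a cartilage class that should lack the gene. The median depths of these classes before thinning were 4029 and 9330 UMIs, and the unthinned shares were 51.1% and 0.204%.

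Mast cell-like cells were the other class with Il4 well above background, at 61.8 (30.9 to 111) per 1000000 in control and 113 (81.2 to 154) in ACD. Their Il4 was spread thinly, with at most 2 UMIs in any cell, and 34 of 155 ACD cells held the 41 UMIs. The basophil and mast cell lists could not be kept fully apart in these cells. Basophil markers summed to 978 per 1000000 in mast cell-like control cells and 1328 in ACD, with 2 and 3 of the 6 markers in at least 10% of cells, and the part of this in the Il4 value was not tested. Over all T/NK/ILC-like subsets the Il4 UMIs were 4 and 12 in the control and ACD library, at 1.18 (0.321 to 3.02) and 0.565 (0.292 to 0.987) per 1000000. In dFB-like cells Il4 was at 0 and 0.296, close to the 0 and 0.202 of chondrocyte-like cells, and such values are read as background.

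Il13, the cytokine that acts on epithelium and fibroblasts, came from different cells in the 2 libraries. The totals were 260 UMIs in control and 2127 in ACD, or 2.82 and 21.3 per 1000000. In control, 76.2% of Il13 UMIs lay in T/NK/ILC-like cells, and 13 of the 260 in basophil-like cells. Within the lymphocytes, the ILC2-like subset held 39.6% of all control Il13 and the subset like dendritic epidermal T cells (DETC-like), the resident T cells of mouse epidermis, held 29.6%. In ACD the same subsets held 5.88% and 6.96%, all T/NK/ILC-like cells 31.0%, and basophil-like cells 63.7%.

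Their levels, unlike their shares, were not lower in ACD. ILC2-like cells stood at 149.9 (122 to 182) per 1000000 in control and 306 (255 to 364) in ACD, with a log2 ratio of 1.03 (0.64 to 1.42). A few cells carried this, since the cell with most Il13 held 24 of 103 UMIs in control and 38 of 125 in ACD, and the ratio without them was 0.92. At 2000 UMIs per cell the share of ILC2-like cells with Il13 was 14.4% in control and 12.3% in ACD (16.4% and 18.8% unthinned, with 14 and 4 cells left out). DETC-like cells stood at 186 (147 to 232) and 233 (197 to 274), a log2 ratio of 0.33 (-0.08 to 0.74), with 29.6% and 26.8% of cells positive after thinning. No single DETC-like cell carried most of their Il13, with at most 6 UMIs in a control cell and 10 in an ACD cell. It was still uneven: 62.9% of control and 49.1% of ACD cells had none before thinning. The 13 control and 12 ACD cells with most Il13 held 48.1% and 49.3% of it. In chondrocyte-like cells the thinned shares were 0 of 3770 control cells, where a count of 0 allows up to 0.0796%, and 0.123% in ACD.

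Basophil-like cells had 13 Il13 UMIs in 9 control cells and 1354 in 270 ACD cells, or 241 (128 to 413) and 1040.1 (985 to 1097) per 1000000, with a log2 ratio of 2.11 (1.33 to 3.02). Without the cell with most Il13 in each library it was 2.49. The share of cells with Il13 was 66.7% in control and 61.5% in ACD, which are 6 and 166 cells, and at 2000 UMIs per cell it was 4 of 8 (15.7% to 84.3%) and 128 of 266 cells (42.0% to 54.3%), so that the control share is hardly bounded.

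In the ACD basophil-like cells, Il4 and Il13 were detected in overlapping but unequal sets. Both were found in 92 of 270 cells (34.1%), Il4 alone in 46 (17.0%), Il13 alone in 74 (27.4%) and neither in 58 (21.5%). At 2000 UMIs per cell the same shares were 22.2%, 12.4%, 25.9% and 39.5%. In mast cell-like ACD cells both were found in 10 of 155, and Il4 alone in 24. Mast cell-like cells stood at 50.6 (23.1 to 96.1) per 1000000 for Il13 in control and 105 (74.3 to 144) in ACD, from 9 and 38 UMIs, which is within counting error (log2 1.05, -0.02 to 2.29). Detection of 1 cytokine without the other at these depths does not show that a cell lacked it.

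**Figure D2:**
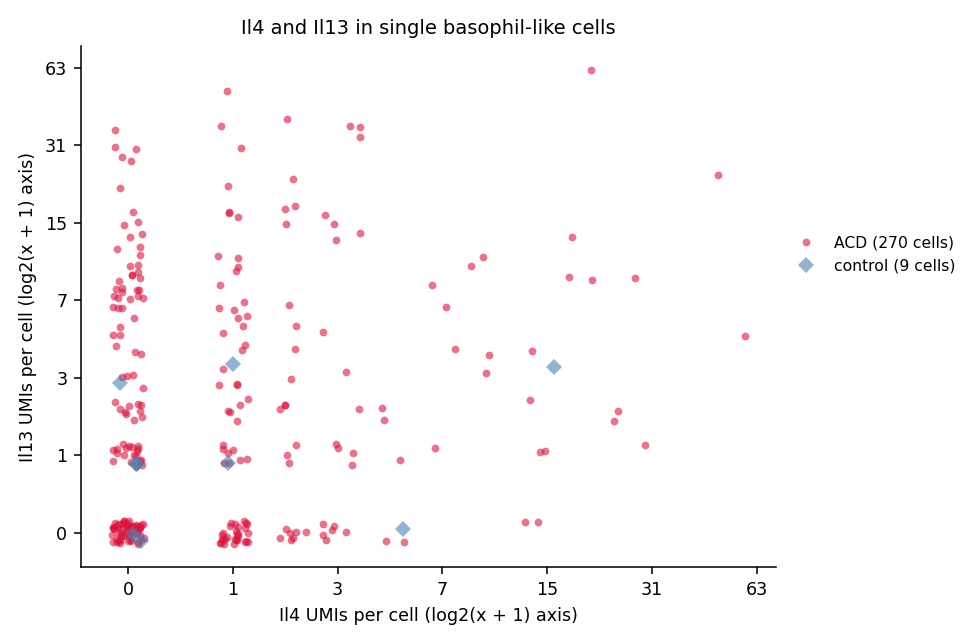
Il4 and Il13 UMIs in each basophil-like cell (axes in UMIs per cell on a log2(x + 1) scale, points jittered), with the 9 control and 270 ACD cells in different colours. The ACD cells spread along both axes, up to 57 Il4 and 62 Il13 UMIs, with 92 cells positive for both genes.

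The other T cell subsets had Il13 in few cells. CD8+ T-like cells held no Il13 UMI in 27 control cells and 183 in 800 ACD cells, 26.0 (22.4 to 30.1) per 1000000, of which 1 cell held 50. Dermal gamma delta T-like (dgT-like) cells stood at 5.68 in control and 25.9 in ACD, but 1 cycling ACD cell held 60 of the 99 UMIs. The log2 ratio of 2.19 (1.25 to 3.29) was 1.36 without the top cell of each library and 0.69 as a mean over cells. A cycling sub-cluster led by Cenpf and Ube2c, with 34 control and 81 ACD cells, held 4 and 91 Il13 UMIs, 60 of them in 1 ACD cell. CD4+ T-like cells stood at 45.4 (18.2 to 93.5), all 7 UMIs in 1 of 43 cells, and 25.1 (20.3 to 30.8), 92 UMIs in 37 of 648 cells. Treg-like cells held 1 Il13 UMI in each library. For T/NK/ILC-like cells as a whole the level was 58.4 in control and 31.0 in ACD, with a log2 ratio of -0.91 (-1.14 to -0.68), in a class whose control cells were mostly dgT-like and ILC2-like and whose ACD cells were mostly CD8+, CD4+ and NK/ILC1-like.

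Il5, the growth factor of eosinophils, was at the edge of detection, with 10 UMIs in control and 20 in ACD. Of these, 4 and 12 lay in T/NK/ILC-like cells. The highest level was in ILC2-like cells, with 2 control and 6 ACD UMIs, or 2.91 (0.352 to 10.5) and 14.7 (5.39 to 32.0) per 1000000, and dgT-like cells held 2 and 5. No Il5 UMI lay in basophil-like cells, where 0 of 266 thinned ACD cells allows a share of up to 1.13%. The difference between libraries was within the counting intervals in each class.

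The ILC2-like name rests on 4 of 9 listed markers in at least 10% of control cells and 5 of 9 in ACD. Areg stood at 269 and 595 per 1000000, Cysltr1 at 183 and 296, and Icos at 160.0 and 198, while Klrg1, Nmur1 and Hs3st1 were at or near 0. The list did not single these cells out. Treg-like cells had 5 and 4 of the 9 markers in at least 10% of cells, at summed levels of 1303 and 1386 against 797 and 1238 in ILC2-like cells, and CD8+ T-like control and dgT-like ACD cells reached 4. Areg was higher in control DETC-like cells (734), and Icos in CD4+ T-like (545 and 649) and Treg-like cells (691 and 1039.6). Cd3e, which marks T cells, stood at 8.73 and 17.1 against 1684 and 1580.1 in DETC-like cells, yet Cd3g was at 412 and 438, so these cells were not free of CD3 transcripts. Il13 was itself among the 10 leading genes of this sub-cluster, although it had no part in the clustering.

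**Figure D3:**
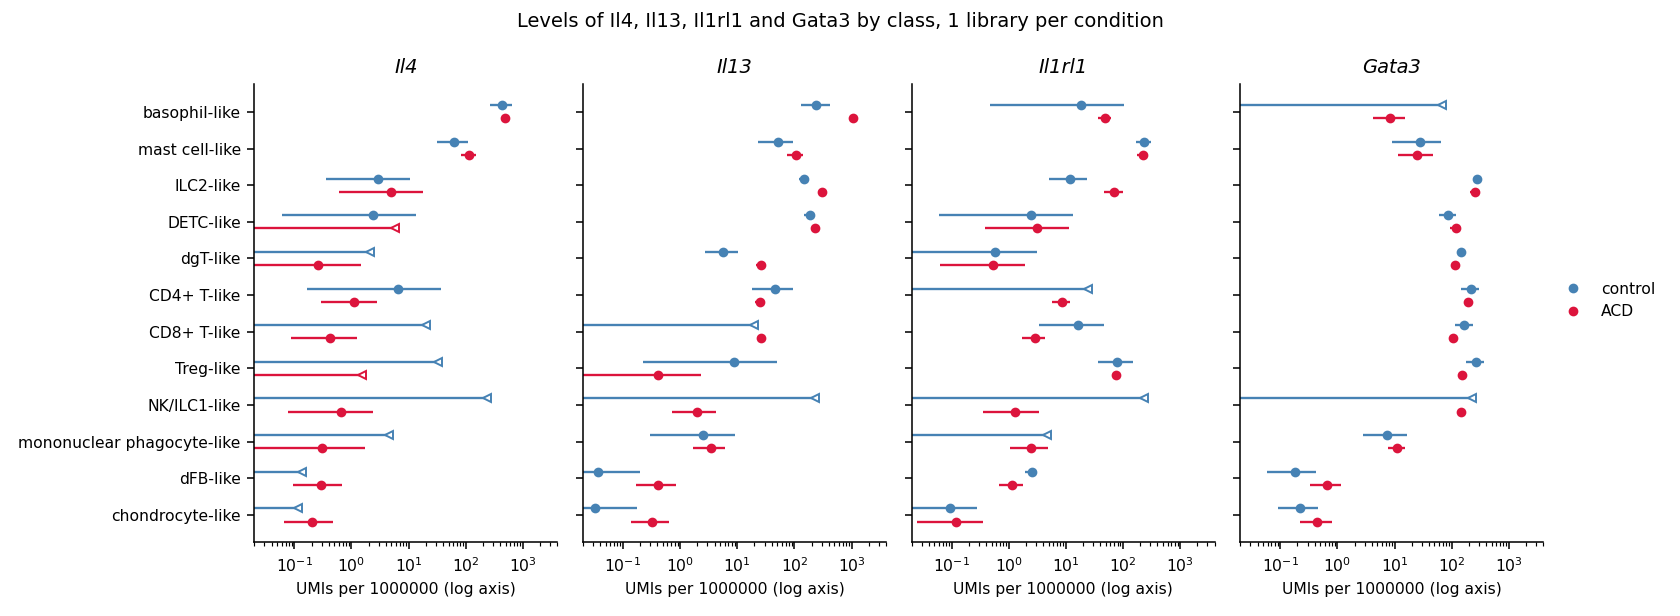
Levels of Il4, Il13, Il1rl1 and Gata3 (UMIs per 1000000, log axis) by class for control and ACD, with points at the level, lines for exact Poisson 95% intervals and open triangles at the upper limit where no UMI was found. Il4 was highest in basophil-like cells, Il13 in basophil-like, ILC2-like and DETC-like cells, Il1rl1 in mast cell-like cells and Gata3 in lymphocytes.

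Il1rl1 encodes ST2, the receptor for IL-33, and was found on most of the source classes. Mast cell-like cells had the highest level in both libraries, 231 (165 to 313) per 1000000 in control and 221 (175 to 275) in ACD, and Treg-like cells followed at 78.7 (36.0 to 149) and 74.7 (64.3 to 86.4). Neither differed beyond counting error. Because there were 39 Treg-like cells in control and 481 in ACD, Treg-like cells held 38.4% of ACD Il1rl1 UMIs against 5.96% in control. Il1rl1 itself ranked among the 10 genes that led the Treg-like sub-cluster.

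ILC2-like cells had 8 Il1rl1 UMIs in control and 28 in ACD, or 11.6 (5.03 to 22.9) and 68.5 (45.5 to 99.0) per 1000000, a log2 ratio of 2.56 (1.39 to 3.90). Positive cells were 2.14% and 8.64% at 2000 UMIs per cell (3.48% and 11.8% unthinned). Only 1 ILC2-like cell in each library had both Il1rl1 and Il13. Basophil-like cells held 1 UMI in control and 62 in ACD, 47.6 (36.5 to 61.1) per 1000000 in ACD, with 49 of 270 cells positive. In 31 of those 49 cells Il13 was found too. Resident cells were low in level: dFB-like cells stood at 2.50 and 1.13, from 14 of 3499 and 8 of 1583 cells. Their 69 control UMIs, 27 of them in 1 cell, still outnumbered the 41 of mast cell-like control cells. Keratinocyte-like and endothelial-like cells held 1 UMI or none.

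Gata3 followed the lymphocytes. T/NK/ILC-like cells held 54.8% of its UMIs in control and 81.5% in ACD, and their level was 172 (158 to 186) and 136 (131 to 141) per 1000000, a log2 ratio of -0.34 (-0.47 to -0.21). It was -0.15 with median-of-ratios scaling and -0.11 with each library clustered separately. Each subset was positive except the 5 control NK/ILC1-like cells. ILC2-like cells stood at 272 (234 to 314) and 259 (212 to 314), and CD4+ T-like cells at 214 (147 to 300.5) and 189 (175 to 204), both within counting error. Lower ACD levels were measured in Treg-like cells (262 and 153, log2 -0.78, -1.31 to -0.19), CD8+ T-like cells (167 and 104, log2 -0.69, -1.20 to -0.12) and dgT-like cells (144 and 114, log2 -0.35, -0.57 to -0.12). DETC-like cells stood at 87.0 (60.9 to 120.4) and 117 (91.5 to 146).

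Outside lymphocytes Gata3, which also serves hair follicle and epidermal differentiation, marked keratinocyte-like cells, at 108 per 1000000 in both libraries with a log2 ratio of 0.00 (-0.26 to 0.27). Basophil-like cells had no Gata3 UMI in control and 11 in ACD, 8.45 (4.22 to 15.1) per 1000000, so the class with most Il4 and Il13 in ACD was among the low classes for Gata3. Chondrocyte-like cells stood at 0.223 and 0.445.

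Il4ra, the receptor chain shared by IL-4 and IL-13, was present in leukocytes and residents alike. Its highest subset levels were in Treg-like cells, at 114 (60.5 to 194) per 1000000 in control and 87.9 (76.5 to 100.5) in ACD, and in control DETC-like cells at 101 (73.1 to 137). DETC-like cells in ACD stood at 39.4 (25.5 to 58.1), a log2 ratio of -1.37 (-2.14 to -0.62), and their share of positive cells at 2000 UMIs was 17.4% in control and 3.57% in ACD. T/NK/ILC-like cells as a whole stood at 52.5 (45.1 to 60.8) and 49.3 (46.4 to 52.4), a log2 ratio of -0.09 (-0.32 to 0.15). Basophil-like cells held 13 Il4ra UMIs in ACD, 9.99 (5.32 to 17.1), below every lymphocyte subset of ACD.

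Among the cells kept, Il4ra did not differ beyond counting error in the resident receiving classes. It stood at 24.5 (22.7 to 26.4) and 25.0 (22.7 to 27.5) in dFB-like cells, a log2 ratio of 0.03 (-0.15 to 0.21). In keratinocyte-like cells it was 8.39 (5.20 to 12.8) and 10.1 (6.07 to 15.8), a log2 ratio of 0.26 (-0.71 to 1.23). In endothelial-like cells it was 24.1 (14.9 to 36.8) and 18.9 (11.03 to 30.3), a log2 ratio of -0.35 (-1.36 to 0.65). The last ratio comes from 21 and 17 UMIs, and it was 0.67 when all deposited barcodes were sorted by gates on marker genes. The same gates gave 0.38 in dFB-like and 0.92 in keratinocyte-like cells. Mononuclear phagocyte-like cells were at 33.7 and 35.0 and chondrocyte-like cells at 4.78 and 6.76. Vascular smooth muscle cell-like (VSMC-like) cells stood at 19.1 (14.2 to 25.1) and 11.4 (7.68 to 16.2), and muscle satellite-like cells at 3.62 and 32.0, from 2 and 24 UMIs.

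Il13ra1, the chain that completes the type II receptor, had a distribution opposite to the lymphocytes. T/NK/ILC-like cells stood at 0.590 and 0.518 per 1000000, below the 21.0 and 20.2 of chondrocyte-like cells, and the level was highest in VSMC-like cells at 88.8 (77.9 to 100.9) and 109 (96.7 to 122). The log2 ratio in VSMC-like cells was 0.29 (0.04 to 0.55), and 0.026 when each library was clustered separately. Pericyte-like cells stood at 59.8 and 58.8, and neutrophil-like ACD cells at 64.6 from 15 UMIs. Keratinocyte-like cells stood at 34.4 (27.5 to 42.5) and 35.0 (27.1 to 44.6), a log2 ratio of 0.03 (-0.46 to 0.51), and endothelial-like cells at 11.5 (5.50 to 21.1) and 15.6 (8.53 to 26.2). Mononuclear phagocyte-like cells were at 58.7 (43.2 to 78.1) in control and 36.6 (30.3 to 43.8) in ACD, with a log2 ratio of -0.68 (-1.18 to -0.16). A cluster led by Cd207, the langerin gene of Langerhans cells, made up 33 of the 104 control and 28 of the 427 ACD cells of this class, and its part in the ratio was not tested.

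dFB-like cells stood at 40.8 (38.5 to 43.3) and 48.9 (45.6 to 52.4) for Il13ra1, a log2 ratio of 0.26 (0.13 to 0.39). This difference rested on 1 sub-cluster led by Saa3 and Cxcl10, which held 1 control and 533 ACD cells and stood at 62.9 in ACD: without it the log2 ratio was -0.09 (-0.26 to 0.08). Most control dFB-like cells lay in other sub-clusters, the largest led by Cthrc1 and Cyp2f2 (623 control and 63 ACD cells) and by Fbxo2 and Dlk1 (534 and 41). Among sub-clusters with cells in both libraries, the one led by Gap43 and Pi16 was highest, at 89.5 in control and 138 in ACD.

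Il4ra and Il13ra1 were each detected in a minority of dFB-like cells, and seldom together. Il4ra was detected in 525 of 3499 control and 295 of 1583 ACD cells, and Il13ra1 in 865 and 494. Detection of 1 chain without the other at these depths does not show that a cell lacked it. Whether the overlap differed from what these shares alone would give was not tested. In dFB-like cells both were detected in 4.23% of control and 8.59% of ACD cells, and at 2000 UMIs per cell in 0.318% and 0.383%. The median dFB-like cell had 7190 UMIs in control and 9687 in ACD. The parts of depth and of sub-cluster make-up in the unthinned difference were not tested.

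**Figure D4:**
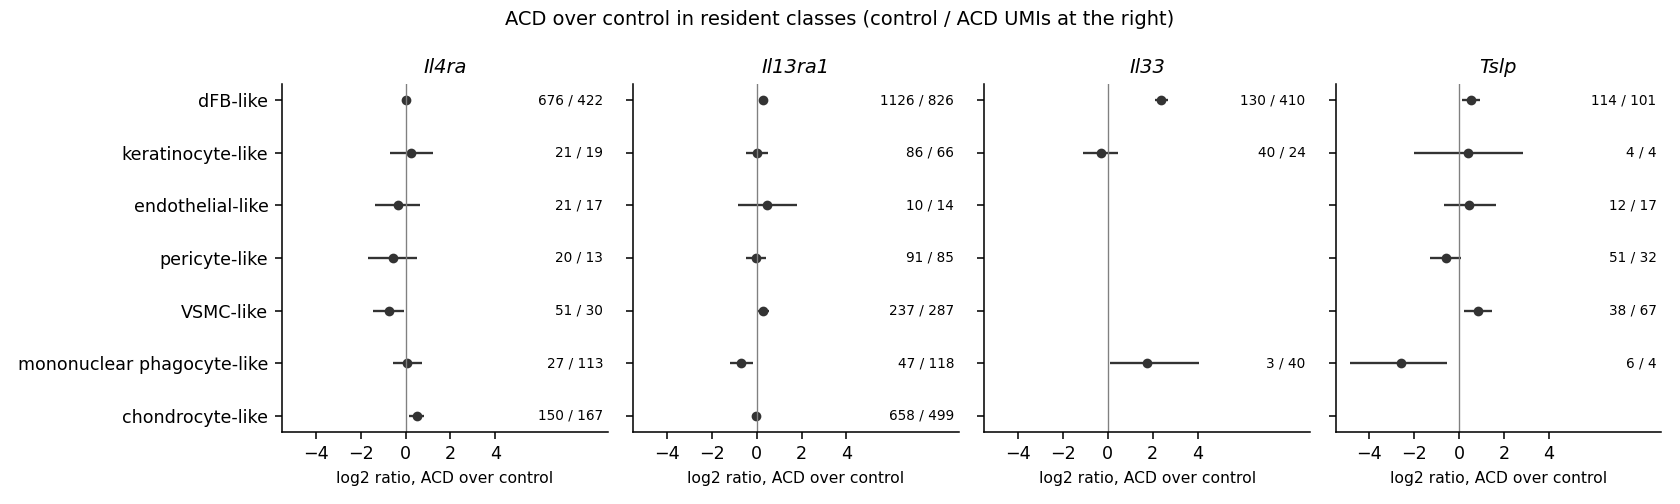
Log2 ratio of ACD over control (horizontal axis, with 95% counting intervals) for Il4ra, Il13ra1, Il33 and Tslp in resident classes and mononuclear phagocyte-like cells, with the control and ACD UMIs at the right of each panel. Classes with few UMIs are left blank. The dFB-like Il33 ratio of 2.37 stands apart from the dFB-like Il4ra ratio of 0.03.

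Il33 is stored in the nucleus of structural cells and acts as an alarmin when released. Over all cells kept it stood at 2.99 per 1000000 in control (276 UMIs) and 6.63 in ACD (661 UMIs). In dFB-like cells it was 4.71 (3.94 to 5.60) in control and 24.3 (22.0 to 26.8) in ACD, from 130 and 410 UMIs, a log2 ratio of 2.37 (2.08 to 2.66). The share of dFB-like cells with Il33 at 2000 UMIs was 0.723% in control and 2.68% in ACD (2.40% and 11.1% unthinned, with 40 and 15 cells left out), against 0.0265% and 0.0410% of chondrocyte-like cells. The barcodes left out by the filter held a further 445 ACD Il33 UMIs, 40.2% of all, of which 436 lay in 617 barcodes over the UMI limit.

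This ratio was smaller when the make-up of the fibroblasts was held fixed. The Saa3/Cxcl10-led sub-cluster held 232 of the 410 ACD UMIs at 31.8 per 1000000, and the log2 ratio was 1.98 without it and 1.37 when 10 sub-clusters were weighted by their control UMIs. Within sub-clusters the level was still higher in ACD where Il33 was present at all. It stood at 14.7 in control and 54.6 in ACD in the Gap43/Pi16-led sub-cluster, with a log2 interval of 1.09 to 2.66. In the Sfrp4/C7-led sub-cluster it was 8.70 and 37.3 (interval 1.05 to 3.28), and in the Thbs4/Angptl7-led sub-cluster 24.7 and 48.4 (interval 0.50 to 1.45). Pi16 marks adventitial progenitor fibroblasts, and C7 marks preadipocyte fibroblasts. Angptl7 is on the chondrocyte marker list used here. The sub-cluster it led with Thbs4 held 60 of the 130 control and 108 of the 410 ACD Il33 UMIs of dFB-like cells. A sub-cluster led by Cxcl5 and Cxcl2 held 10 Il33 UMIs in 12 ACD cells, and the other unmixed sub-clusters held little Il33 in either library.

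An unnamed cluster led by Ccl11 and 6030408B16Rik (120 control and 98 ACD cells), in which 7 dFB markers were each found in at least 10% of cells but none was among its 10 leading genes, where 1 pericyte marker was, had the highest Il33 level of any cluster described. It stood at 67.6 (48.5 to 91.7) in control and 164 (134 to 198) in ACD, with a log2 ratio of 1.28 (0.74 to 1.83), and 1 ACD cell held 36 of the 104 UMIs. Positive cells were 10.4% and 13.6% at 2000 UMIs per cell. Keratinocyte-like cells, a well known source of IL-33 in skin, stood at 15.99 (11.4 to 21.8) and 12.7 (8.16 to 19.0), a log2 ratio of -0.33 (-1.12 to 0.44). Mononuclear phagocyte-like cells held 3 control and 40 ACD UMIs, but all 40 lay in 1 cell. No Il33 UMI was found in endothelial-like, pericyte-like or VSMC-like cells of either library.

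**Figure D5:**
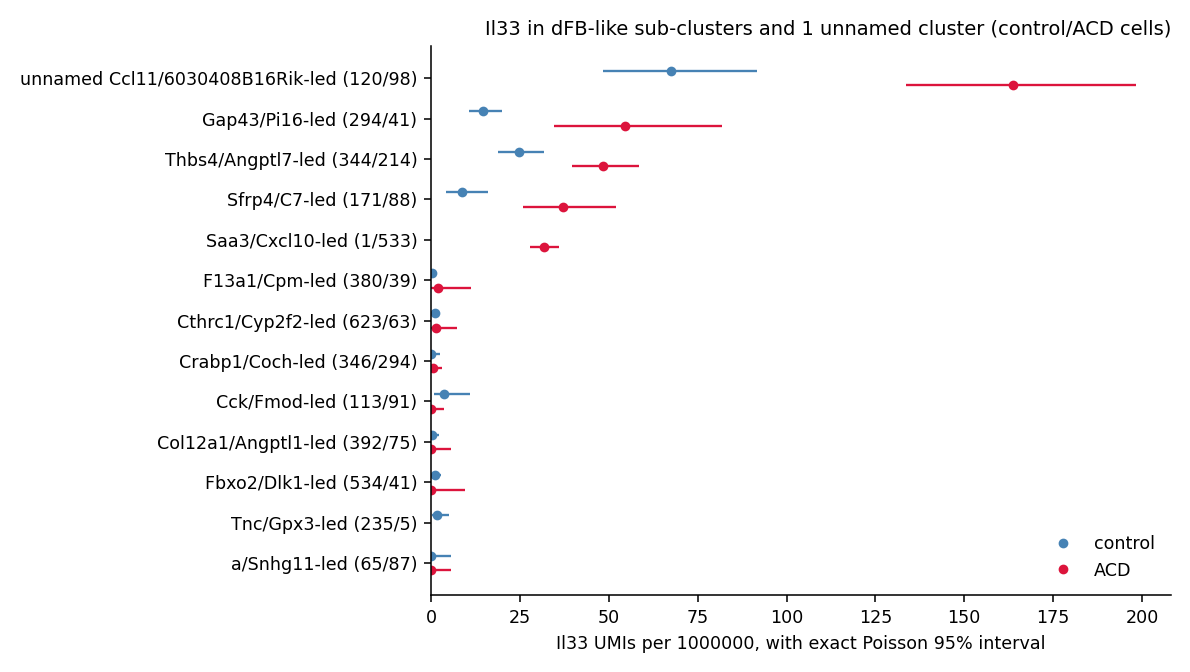
Il33 level (UMIs per 1000000, with exact Poisson 95% intervals) in each dFB-like sub-cluster and in 1 unnamed cluster, control and ACD, with cell numbers in parentheses. Points are shown only where a library had at least 20 cells, and mixed sub-clusters are left out. Levels of 31.8 to 54.6 in 4 ACD sub-clusters and 164 in the unnamed cluster stand above the remaining sub-clusters, which lie near 0.

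Tslp, the other alarmin, had its highest levels in the vessel-wall classes, while the class with most of its UMIs was dFB-like, with 114 in control (39.0%) and 101 in ACD (35.6%). Pericyte-like cells stood at 33.5 (25.0 to 44.1) per 1000000 in control and 22.2 (15.2 to 31.3) in ACD, with a log2 ratio of -0.60 (-1.28 to 0.07). VSMC-like cells stood at 14.2 (10.1 to 19.6) and 25.4 (19.7 to 32.3), a log2 ratio of 0.84 (0.24 to 1.45), with 18 of the 67 ACD UMIs in 1 cell and a ratio of 0.51 without the top cell of each library. Endothelial-like cells were at 13.8 (7.11 to 24.0) and 18.9 (11.03 to 30.3). The order of pericyte-like and VSMC-like cells was therefore not the same in the 2 libraries, and in ACD the 3 vessel classes did not differ beyond their intervals. dFB-like cells were lower at 4.13 (3.41 to 4.97) and 5.98 (4.87 to 7.27), a log2 ratio of 0.53 (0.13 to 0.93), which was 0.11 with marker gates in place of clusters and 0.23 with gates on all barcodes. Schwann/glia-like cells stood at 7.32 and 2.56. Keratinocytes are the classic source of TSLP, yet the keratinocyte-like cells kept held 4 UMIs in each library, at 1.60 (0.436 to 4.09) and 2.12 (0.579 to 5.44). The filter left out 38 control and 109 ACD barcodes that marker gates called keratinocyte-like. These held 7 and 16 Tslp UMIs, or 5.16 and 2.92 per 1000000. T/NK/ILC-like, basophil-like and mast cell-like cells held 1 UMI or none.

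To separate which cells were present from how much each class expressed, the level over all cells was recomputed with the class levels of control and the class make-up of ACD, and the reverse. For Il4 the make-up alone gave a log2 ratio of 3.88 and the class levels alone 0.83, out of 4.10 in all. For Il13 they gave 2.53 and -0.06 out of 2.92, and for Gata3 1.84 and 0.06 out of 1.62. Il33 went the other way, with -0.28 from make-up and 1.66 from class levels out of 1.15. For Il4ra the 2 parts were 0.54 and 0.17 out of 0.62, for Il13ra1 -0.32 and 0.12 out of -0.27, and for Tslp -0.21 and 0.22 out of -0.15. For Il1rl1 they were 0.91 and -0.00026 out of 1.54, and for Il5 1.498 and 0.13 out of 0.89, from 10 and 20 UMIs. The parts do not divide the Il13 total into causes, because its class levels moved in opposite directions: up in basophil-like cells (241 and 1040.1) and down in T/NK/ILC-like cells (58.4 and 31.0). The sums take each class whole, so a shift among its subsets counts as class level. ILC2-like cells were 201 of the 835 control and 85 of the 3356 ACD T/NK/ILC-like cells. The Il13 log2 ratio was 1.03 in ILC2-like, 0.33 in DETC-like and 2.19 in dgT-like cells, and -0.85 in CD4+ T-like cells. For dgT-like cells, 1 ACD cell held 60 of the 99 UMIs, and the mean over cells gave 0.69. The control levels of basophil-like cells in these sums come from 9 cells. In dissociated tissue a change in cell number and a change in capture cannot be told apart.

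The genes around the members were followed with a list of 56 genes for IL-4 and IL-13 signalling, IL-5, IL-3 and IL-9, alarmin receptors, lineage regulators, type 2 chemokines and STAT6 target genes. Genes with at least 50 UMIs in a class over both libraries were counted, and a gene past 2-fold was called higher or lower, as a description without a test. In dFB-like cells 29 were measured, with 3 higher and 2 lower, where 3.52% and 1.30% of all 11972 measured genes were past 2-fold, and the median log2 ratio was -0.01 for the list and -0.01 for all genes. Ccl8, a chemokine for CCR8-bearing and other leukocytes, stood at 22.5 in control and 201 in ACD. The protease inhibitor Timp1 stood at 70.3 and 323. Csf2rb, the beta chain shared by the IL-3, IL-5 and GM-CSF receptors, stood at 0.725 and 6.22. Its level was far higher in mononuclear phagocyte-like cells (164 and 149) and basophil-like cells (353 and 1181). The part of transcripts from such leukocytes in the dFB-like Csf2rb value was not tested. The 2 lower genes were Arg1 (5.47 and 1.84) and Postn (2940 and 1213), both known targets of IL-4 and IL-13. So the STAT6 target genes of the list past 2-fold in dFB-like cells lay in both directions, with Timp1 higher and Arg1 and Postn lower. The dFB-like clusters with Postn among their leading genes held 1037 and 162 control cells, against 102 and 30 ACD cells. The part of this make-up in the values was not tested. The 8 measured genes of IL-4 and IL-13 receptor signalling were all within 2-fold.

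In keratinocyte-like cells 16 genes of the list were measured, with Ccl8 higher (no UMI in control and 56 in ACD, at least 24.8-fold against a floor of 3 UMIs) and the matrix gene Tnc lower (18.8 and 3.72), beside 2.51% and 1.79% of 7282 genes. Phagocyte markers summed to 11.6 per 1000000 in these cells in control and 813 in ACD, with 0 and 2 of 10 markers in at least 10% of cells and 3 and 5 at 0, and their part in the Ccl8 value was not tested. In endothelial-like cells none of 13 was past 2-fold in either direction, beside 2.42% and 2.02% of 4551 genes.

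In T/NK/ILC-like cells 34 were measured, with 7 higher and 7 lower, beside 4.78% and 7.67% of 10363 genes. With median-of-ratios scaling, which took off a class-wide log2 shift of -0.19, 8 were higher and 5 lower, and the calls over all genes went from 495 higher and 795 lower to 628 and 523. Of the higher genes, 4 were lineage regulators. Gfi1 had no UMI in control and 66 in ACD (at least 3.51-fold), Stat5a stood at 15.6 and 44.3, Stat5b at 22.7 and 46.1, and Bhlhe40, which supports cytokine production in T cells, at 120.3 and 258. Jak3, the kinase bound to the common gamma chain, was higher too, at 8.85 and 22.0. The lower genes included Il17rb, the IL-25 receptor (9.44 and 1.27), Il9r (21.2 and 3.39) and Ptgdr2, the CRTH2 receptor of type 2 leukocytes (5.60 and 1.79), beside a class in which ILC2-like cells were 201 of 835 in control and 85 of 3356 in ACD. In the ILC2-like cells themselves none of 14 measured genes was past 2-fold, beside 2.42% and 1.28% of 2815 genes. In DETC-like cells Bhlhe40 was higher (21.7 and 96.1), 1 of 13, beside 3.58% higher and 1.94% lower. In dgT-like cells Jak3 and the cytokine Csf2 were higher, 2 of 24, beside 2.35% higher and 1.75% lower.

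In basophil-like cells 20 genes of the list were measured and 7 were higher and 1 lower, beside 17.4% and 11.4% of 2829 genes, with all control values from 9 cells. Median-of-ratios scaling gave 11 higher and 1 lower, and over all genes 728 higher and 176 lower in place of 493 and 322. Csf2rb2, a mouse beta chain specific to IL-3, stood at 92.8 and 656, and Csf2rb at 353 and 1181. Mast cell-like cells had 9 measured and 1 past 2-fold, beside 2.75% higher and 4.06% lower (2 higher and 1 lower with median-of-ratios scaling). The gene called without that scaling was Postn, at 613 and 30.4, and it was also lower in basophil-like (427 and 29.2), T/NK/ILC-like (14.4 and 4.90), VSMC-like (424 and 37.6), melanocyte-like (41.4 and 8.94), muscle satellite-like (118 and 32.0) and chondrocyte-like cells (34.9 and 13.5). Postn is a fibroblast matrix gene, and it was lower in dFB-like cells too, as given above. The part of fibroblast transcripts in the Postn values of the other classes was not tested.

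Mononuclear phagocyte-like cells had 32 measured, 4 higher and 4 lower, beside 6.14% and 5.28% of 7084 genes. Ccl17, a ligand of CCR4, stood at 9.998 and 28.2 and Chil3 at 0 and 26.1, while Ccl24, an eotaxin, stood at 73.7 and 1.24 and Mrc1, the mannose receptor, at 191 and 32.3. So markers associated with alternatively activated macrophages were found on both sides. The Cd207-led cluster was 33 of 104 control and 28 of 427 ACD cells here as well, and its part in these values was not tested. In pericyte-like cells 19 were measured, with Il3ra (8.55 and 43.6), Timp1 (51.3 and 132) and Socs1 (71.6 and 148) higher and the eotaxin Ccl11 lower (1054 and 358), beside 2.25% and 3.36% of 6364 genes. In VSMC-like cells Vcam1 was lower too (22.5 and 9.86), so that none of 20 was higher and 2 were lower, beside 1.87% and 3.83%. In Schwann/glia-like cells none of 18 was past 2-fold (beside 2.25% higher and 0.699% lower), and in muscle satellite-like cells only Postn, 1 of 14 (1.62% and 3.63%). Chondrocyte-like cells had Il2rg higher, at 0.318 and 2.02, and Postn lower, of 29 (1.33% and 0.759%). Melanocyte-like cells had Crlf2 higher, at 7.03 and 33.7, and Postn lower, of 16 (2.11% and 1.47%).

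The partner chains of the receptor members, which were chosen after their values were seen, set out where whole receptors could form. Il2rg, the common gamma chain, stood at 259.5 and 284 in T/NK/ILC-like cells but at 0.290 and 1.90 in dFB-like cells, the class in which Il13ra1 was present. Il1rap, the second chain of the IL-33 receptor, was at 26.9 in basophil-like ACD cells (35 UMIs), 7.34 in ILC2-like (3 UMIs) and 2.87 in Treg-like ACD cells (7 UMIs). In dFB-like cells, where Il1rl1 was rare, Il1rap stood at 78.5 and 52.8. Crlf2, which forms the TSLP receptor with Il7r, was found in basophil-like ACD cells at 98.3 and in Treg-like ACD cells at 140.4, and Il7r at 96.0 and 165. ILC2-like ACD cells stood at 95.4 for Crlf2 and 578 for Il7r. Mast cell-like ACD cells, which had the highest Il1rl1 level, stood at 46.9 for Crlf2, 58.0 for Il7r and 11.05 for Il1rap (4 UMIs). Stat6 was low and even, at 33.0 and 29.2 in dFB-like, 15.6 and 19.6 in keratinocyte-like and 31.6 and 28.7 in T/NK/ILC-like cells.

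The genes whose pattern was most like each member were found by Pearson r of log2(UMIs per 1000000 + 10) over 26 class-by-library profiles of at least 50 cells, among 13392 genes. The profiles share libraries and depth, so r is given as a description. Only the ACD library gave a basophil-like profile, so r between genes held mainly by these cells rests largely on that profile. Il4 was closest to Cd200r3 (r = 0.999), Csrp3 and Cyp11a1, and Cd200r3 and Cyp11a1 are markers that named the basophil-like class. Il13 was closest to Cd200r1 (0.947), Sytl3 and Furin. Il1rl1 was closest to the mast cell genes Cpa3 (0.976), Fcer1a and Ctsg, and Tslp to Angpt2 (0.893), Gucy1a3 and Esam, which are known from pericytes and vessels. Gata3 was closest to Cdca3 (0.914), Slc15a1 and Aurka, of which Cdca3 and Aurka are cell cycle genes. Il33 (Hs3st6, 0.818, then Wnt10a and Slc6a2), Il13ra1 (Gm15050, 0.836, then Trafd1 and Hotairm1) and Il4ra (Ubash3b, 0.740, then Abcg1 and Rassf5) had looser neighbours. Il5 had too few UMIs, 30 in all, for its neighbours to be read.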

How the data were processed

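Droplet 3′ libraries of dissociated ear skin were read as deposited. Per the labels, the authors used 10x Genomics v2 chemistry and Cell Ranger 3.1.0 with mm10, and the methods name another Cell Ranger version. The deposited values are raw whole-number UMI counts for each gene in each barcode. A 3′ UMI count carries no gene length. In the authors' methods the UMI limit is written as a lower bound. It was read as an upper bound, and the methods state fewer cells than this filter leaves. No authors' cell annotation was used here.

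Kept barcodes were clustered with scanpy 1.11.5 (2000 variable genes, 30 components, 20 neighbours, Leiden resolution 1) after leaving out the members and the pathway list, giving 36 clusters, of which 5 stayed unnamed. T/NK/ILC, dFB and endothelial cells were clustered again, and 9 of 39 sub-clusters with markers of another class (at least 50% of them) were set aside as mixed. A name needed at least 3 markers in 10% of cells. These thresholds were set after the clusters were seen. T cell receptor genes were not used, and 1 listed chondrocyte marker was missing from the matrices. Doublets were treated by the UMI limit and the mixed sub-clusters, with Scrublet as an alternative.

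Counts were summed by class and library. Intervals are exact Poisson, Clopper-Pearson or, for ratios, conditional binomial at 95% (scipy 1.17.1). No test was made, since each condition was 1 library and cells are not replicates. On simulated counts the ratio intervals held the true value for 95.6% of 11972 genes in the dFB-like comparison, 96.0% of 10363 in T/NK/ILC-like and 96.4% of 7282 in keratinocyte-like cells. That is a check of the calculation. It does not bear on spread between mice or libraries, or on genes held mostly by 1 cell. Shares of cells with a UMI were also taken after thinning each cell to 2000 UMIs. Free RNA in droplets gives single UMIs in cells that do not express a gene, and chondrocyte-like cells served as the comparison for it.

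The members and lists were chosen with earlier results of these data known. All members are given by class. From the pathway list, up to 5 genes past 2-fold in each direction with the largest ratios could be named per class, among genes with at least 50 UMIs, and 3 genes of most similar pattern per member. Gene positions were found for 27645 of 27998 identifiers in GENCODE M21 (GRCm38), and promoter windows for 8 of 9 members. Alternatives covered stricter cell filters, Scrublet removal, marker gates, Leiden resolution 2, separate clustering, means over cells, size factors, thinning to 1000 UMIs and a minimum of 20 UMIs. A further 5 were added after seeing the data: mixed sub-clusters kept, the Saa3/Cxcl10-led sub-cluster left out, sub-clusters weighted by control, the top cell of each library left out, and all barcodes sorted by gates.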

Additional observations from a re-analysis of the deposited data

Results flagged for a closer look

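Several members had a counting interval on 1 side of 0 in a class while other classes lay on the other side or at 0. The differences between classes were not tested. For Il4ra the log2 ratio was 0.50 (0.18 to 0.83) in chondrocyte-like cells and 3.15 (1.14 to 6.27) in muscle satellite-like cells, from 2 and 24 UMIs, against -0.75 (-1.45 to -0.07) in VSMC-like and -1.37 (-2.14 to -0.62) in DETC-like cells. For Il13ra1 it was 0.29 (0.04 to 0.55) in VSMC-like cells, where it was 0.026 with each library clustered separately, and 0.26 (0.13 to 0.39) in dFB-like cells, against -0.68 (-1.18 to -0.16) in mononuclear phagocyte-like cells. For Il1rl1 it was 2.56 (1.39 to 3.90) in ILC2-like cells, against -1.15 (-1.97 to -0.40) in dFB-like cells, where few cells held the gene, and -2.50 (-4.26 to -0.11) in CD8+ T-like cells, from 3 control UMIs.

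The barcodes left out by the filter, 682 in control and 1498 in ACD, were not part of the class values and also differed between libraries. Their log2 ratio of ACD over control was 4.93 for Il4 (1 and 120 UMIs), 4.95 for Il13 (3 and 365), 1.18 for Il4ra (77 and 686), 1.30 for Il33 (46 and 445) and 0.33 for Gata3 (277 and 1370). Of the ACD UMIs, 119 of Il4, 355 of Il13 and 436 of Il33 lay in the 617 barcodes over the UMI limit. Marker gates called 38 control and 109 ACD barcodes left out keratinocyte-like, with 40 and 87 Il33 and 197 and 700 Gata3 UMIs.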

How the results depend on the processing

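Over 104 values and 526 alternatives, most moved by less than their interval. No paired analysis was possible because each condition was 1 library, and for the same reason no replicate could be left out. Marker gates in place of clusters gave a basophil-like share of 76.3% for ACD Il4 and 52.6% for Il13, a dFB-like log2 ratio of 0.049 for Il13ra1 and 1.77 for Il33. With gates on all barcodes, chosen after seeing the data, the shares were 65.2% and 44.9%, Il4ra ratios were 0.38 in dFB-like and 0.67 in endothelial-like cells, and the dFB-like Il1rl1 ratio was reversed at 0.86. Thinning to 2000 UMIs gave shares of 93.3% and 78.0%. In dFB-like cells the mean over cells gave 0.12 for Il13ra1 and 1.93 for Il33, control-weighted sub-clusters 0.12 and 1.37, and leaving out the Saa3/Cxcl10-led sub-cluster -0.089 and 1.98, the first of these reversed. The cause was not tested. Of 52 further member ratios, 374 alternative values stayed within their interval, 18 moved and 1 reversed.

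With a minimum of 20 UMIs, genes of the pathway list past 2-fold were 4 of 27 measured in Schwann/glia-like cells. They were 4 of 27 in VSMC-like, 5 of 32 in chondrocyte-like, 8 of 33 in dFB-like and 1 of 20 in endothelial-like cells. They were 6 of 24 in keratinocyte-like, 5 of 18 in mast cell-like and 4 of 25 in melanocyte-like cells. They were 6 of 22 in muscle satellite-like, 7 of 24 in pericyte-like, 1 of 20 in ILC2-like and 4 of 32 in dgT-like cells. In that order, the counts without this lower minimum were 0, 2, 2, 5, 0, 2, 1, 2, 1, 4, 0 and 2. The share of all genes past 2-fold at the lower minimum is not given, so these rises are not read as particular to the list. Median-of-ratios scaling took off class-wide log2 shifts of -0.19 in T/NK/ILC-like, -0.18 in mast cell-like, -0.36 in basophil-like and -0.13 in muscle satellite-like cells. Of all genes past 2-fold, those higher in ACD went from 32.8% to 45.9% in VSMC-like, from 30.8% to 45.5% in muscle satellite-like, from 57.3% to 69.6% in dgT-like and from 64.8% to 78.1% in DETC-like cells. Ratios that rest on 9 control basophil-like cells, or on 10 and 20 Il5 UMIs, have wide intervals.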
